A study of Mus musculus with 4 samples.

Results

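The expression of 8 genes for transcription factors of effector T cells was examined in single-cell RNA sequencing of virus-specific CD8+ T cells: Tbx21, Eomes, Zeb2, Zeb1, Prdm1, Bhlhe40, Runx3 and Irf4. These were taken by name, as 8 of the 27998 genes in the count tables, and each had UMIs (unique molecular identifiers, each counting 1 captured RNA molecule) in every library. They were read in cells with at least 500 detected genes and at most 10% mitochondrial UMIs. Of such cells, WT1 held 4941, WT2 8092, KO1 5366 and KO2 6494.

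The 4 libraries came from 2 mixed bone marrow chimeras on the C57bl/6 background. Each chimera was a Rag1-/- mouse, sublethally irradiated and given WT marrow that carried CD45.1 together with Bcl3-/- marrow that carried CD45.2. Spleen CD8+ T cells that bound the H-2Db-GP33 tetramer were sorted on day 8 after infection with LCMV Armstrong, a strain that causes an acute infection, and each genotype of each chimera gave 1 library (WT1 and KO1 from chimera 1, WT2 and KO2 from chimera 2). WT and Bcl3-/- cells of 1 chimera thus shared a host and an infection. The Bcl3 deletion was germline, Rag1-/- hosts make no mature T or B cells of their own, and the CD45 allele, the marrow donor and the genotype cannot be told apart. The p-values below rest on only 2 animals. Without a term for the chimera, the fits take the 2 libraries of 1 mouse as independent. With it, they rest on what is left once the chimera is taken out. In both, the spread is in part shared across genes, so a very small p-value does not measure the spread between animals.

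T-bet, the product of Tbx21, and Eomesodermin are related T-box factors that drive the cytotoxic and interferon gamma programs of CD8+ T cells. T-bet induces Zeb2, a zinc finger repressor needed for terminal effector cells, and the related Zeb1 is known for a role in memory cells. Blimp-1 (Prdm1) and Bhlhe40 are further repressors of effector and tissue-resident cells, Runx3 sets the CD8 lineage and its cytotoxic genes, and Irf4 is induced by the T cell receptor and supports expansion. Bcl-3 belongs to the IkB family but acts in the nucleus, where it binds NF-kB p50 and p52.

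On GRCm38, Zeb2 (ENSMUSG00000026872) spans chr2:44983632-45117395 and Tbx21 (ENSMUSG00000001444) chr11:97098071-97115331, both on the minus strand. Eomes (ENSMUSG00000032446) spans chr9:118478212-118486132 and Bhlhe40 (ENSMUSG00000030103) chr6:108660629-108666925, both on the plus strand. Prdm1 (ENSMUSG00000038151) spans chr10:44437177-44528501 on the minus strand, and Runx3 (ENSMUSG00000070691) and Irf4 (ENSMUSG00000021356) span chr4:135120652-135177990 and chr13:30749226-30766976 on the plus strand. Genes on the other strand overlap Zeb2 (Zeb2os among them), Eomes, Bhlhe40, Runx3 and Zeb1, and the strand setting of the counting was not among the sources used here.

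The 250 bases before the RefSeq start sites (build GRCm38.p6) were searched, on both strands, for letters of the motifs that these factors and NF-kB are known to bind. Entries were found for 6 of the 8 genes. The motifs were TCACAC (T-box), TGTGGT (RUNX), CACCTG (the E-box of ZEB proteins), CACGTG (the E-box of Bhlhe40), the IRF motif (a pair of GAAA 2 bases apart) and the kappa B motif (GGG and TTTCC 2 bases apart). None of these was found in the 4 Zeb2 windows or in the Irf4 window, nor in the second window of Runx3. The stretches that hold a match are shown because they are the stretches before start sites of these genes that carry letters of a factor in the group. The RUNX matches before Runx3 are letters of its own family, and the other matches are those of another factor. Capitals mark the match, which may lie on the other strand (CAGGTG for the ZEB E-box and ACCACA for RUNX), and each stretch is written 5′ to 3′ on the strand of the gene.
Tbx21, chr11:97115502-97115547, minus strand, ZEB E-box: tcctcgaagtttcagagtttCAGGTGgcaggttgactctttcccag
Prdm1, chr10:44458810-44458855, minus strand, ZEB E-box: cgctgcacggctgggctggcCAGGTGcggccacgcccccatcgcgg
Eomes, chr9:118478015-118478064, plus strand, IRF: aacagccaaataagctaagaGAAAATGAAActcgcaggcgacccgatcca
Runx3, chr4:135120395-135120544, plus strand, ZEB E-box and 2 RUNX: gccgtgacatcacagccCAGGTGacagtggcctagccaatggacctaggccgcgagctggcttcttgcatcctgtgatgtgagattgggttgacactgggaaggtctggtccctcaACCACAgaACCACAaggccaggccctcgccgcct

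The RefSeq start used for Prdm1 lies inside the annotated gene. In Tbx21 the E-box began 196 bases before the start, in Prdm1 87 bases and in Runx3 233 bases, and the pair of RUNX matches in Runx3 began 134 and 126 bases before it. Such letters are common. Of 32851 windows of this length, 17.2% held CACCTG, 14.0% held TGTGGT, 12.3% held TCACAC, 6.02% held CACGTG, 2.98% held the IRF motif and 1.41% the kappa B motif. A match is a description of the letters and says nothing of binding in these cells.

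The labelled cell type was checked first. In T cell clusters, Cd8b1, which encodes a chain of CD8, was at 2021 (WT1), 1838 (WT2), 2153 (KO1) and 2193 CPM (KO2), while Cd4 lay between 1.80 and 2.91 CPM. CPM are counts of UMIs per 1000000 UMIs summed over the cells named. Cd3e, a subunit of the T cell receptor complex, was abundant but uneven, at 507 and 433 CPM in WT1 and WT2 against 852 and 984 CPM in KO1 and KO2. Each library also held small clusters with B cell, myeloid or plasma cell genes, which were set aside in most of what follows. Cd79a, a B cell gene, was at 4.53 to 6.00 CPM in the T cell clusters, and Csf1r, a macrophage gene, at 2.42 to 4.11 CPM. In all, 307 cell barcodes occurred in more than 1 library (2.19% to 2.79% of the cells of a library).

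Bcl3 UMIs were present in all 4 libraries. In T cell clusters Bcl3 was at 29.2 (WT1) against 21.5 CPM (KO1) in chimera 1, and at 108 (WT2) against 84.6 CPM (KO2) in chimera 2. The Bcl3-/- library was the lower of its chimera in both, by less than the chimeras differed from each other. In the clusters of other cell types it was instead the higher one, with a ratio of Bcl3-/- to WT of 1.44 in chimera 1 and 1.03 in chimera 2. The method counts 3′ ends, and a 3′ tag outside the deleted exons does not check the genotype, so the genotype is taken from the labels.

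The T cell clusters fell into 5 states. Terminal effector-like clusters were named for Klrg1, Cx3cr1, S1pr5, Gzma and related genes, cycling clusters for Mki67 and other cell division genes, and interferon-stimulated clusters for Ifit1, Ifit3 and Isg15. MPEC-gene clusters had the memory precursor genes Tcf7, Id3 and Ccr7. Some of these are also genes of naive T cells. The 10 leading genes of the MPEC-gene cluster of KO1 held 3 of the memory precursor list, 4 of the naive list and 2 of CD4 T cells, Cd4 (46.7 CPM, against 18.3 to 24.1 CPM in the other libraries) and Tnfrsf4. The genotypes were not compared in MPEC-gene cells. The unnamed effector clusters, which held 50.4% to 59.8% of the cells, had fewer than 3 genes of any marker list at 2-fold above the other cells, the list of effector genes included. They were not uniform. A cluster of 771 cells in KO1 was led by Tcf7, Il7r and other memory precursor genes, 1 of 657 cells in WT1 held Il7r and Bcl2 among its 10 leading genes, and 1 of 949 cells in WT1 held Klrg1 and Cx3cr1 (Zeb2 at 31.9, 29.0 and 53.3 CPM). Some unnamed clusters were shallow, with Madd or Gm26740 among their 10 leading genes. In WT2 these held 1495 and 738 cells, with medians of 1662 and 1216 UMIs. In WT1 1 held 345 cells (median 1726 UMIs) and in KO2 1 held 294 cells (1775.5 UMIs). The unnamed clusters of KO1 had medians of 3275 to 4505.5 UMIs. The part of the shallow clusters in the differences below was not tested. The 8 factors took no part in the clustering or the naming. Since states were found in the same cells, the differences between states are given without a test, as log2 differences within a library with their SD over 4 libraries.

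Among the factors, Zeb2 differed between the states by the largest fold. Its level in terminal effector-like cells was 172 (WT1), 115 (WT2), 217 (KO1) and 258 CPM (KO2). In unnamed effector cells it was 32.6, 38.5, 35.2 and 49.7 CPM in the same order. The levels of these states did not overlap: the terminal effector-like cells were higher in 4 of 4 libraries, by 2.21 ± 0.46 on the log2 scale (SD, n = 4), a 4.64-fold difference. Cycling cells (31.8 to 49.4 CPM) differed from unnamed effector cells by less than the spread over libraries (0.05 ± 0.22, SD, n = 4). Interferon-stimulated cells followed, at 23.4 to 31.5 CPM.

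MPEC-gene cells had the lowest Zeb2 level in all 4 libraries, at 15.2 (WT1), 14.6 (WT2), 3.74 (KO1) and 11.9 CPM (KO2). They were below unnamed effector cells by 1.83 ± 0.83 on the log2 scale (SD, n = 4), and by 2.86 with each cell thinned to 1000 UMIs. The KO1 value rests on 2 UMIs (exact 95% interval 0.453 to 13.5 CPM, for counting error). In barcodes with under 100 UMIs, which carry mostly free RNA, Zeb2 was at 37.0 (WT1), 43.6 (WT2), 48.4 (KO1) and 56.7 CPM (KO2), above every T cell state of its library but the terminal effector-like one. KO1 had 2 terminal effector-like clusters, with Zeb2 at 261 and 175 CPM, both above every unnamed cluster of that library.

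T-bet shared with Zeb2 the highest and the lowest state, over a narrower range. Tbx21 in terminal effector-like cells was at 157 (WT1), 150 (WT2), 177 (KO1) and 187 CPM (KO2), and in unnamed effector cells at 118, 112, 124 and 136 CPM. In MPEC-gene cells it was at 71.7, 78.5, 84.1 and 88.4 CPM. Within each library the terminal effector-like level was the highest and the MPEC-gene level the lowest. The differences from unnamed effector cells were 0.45 ± 0.05 and −0.60 ± 0.09 on the log2 scale (SD, n = 4). Of all Zeb2 UMIs of a library, the terminal effector-like cells held 23.5% (WT1), 24.5% (WT2), 51.5% (KO1) and 41.0% (KO2), and the more numerous unnamed effector cells held 38.7%, 40.7%, 23.3% and 32.5%.

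**Figure D1:**
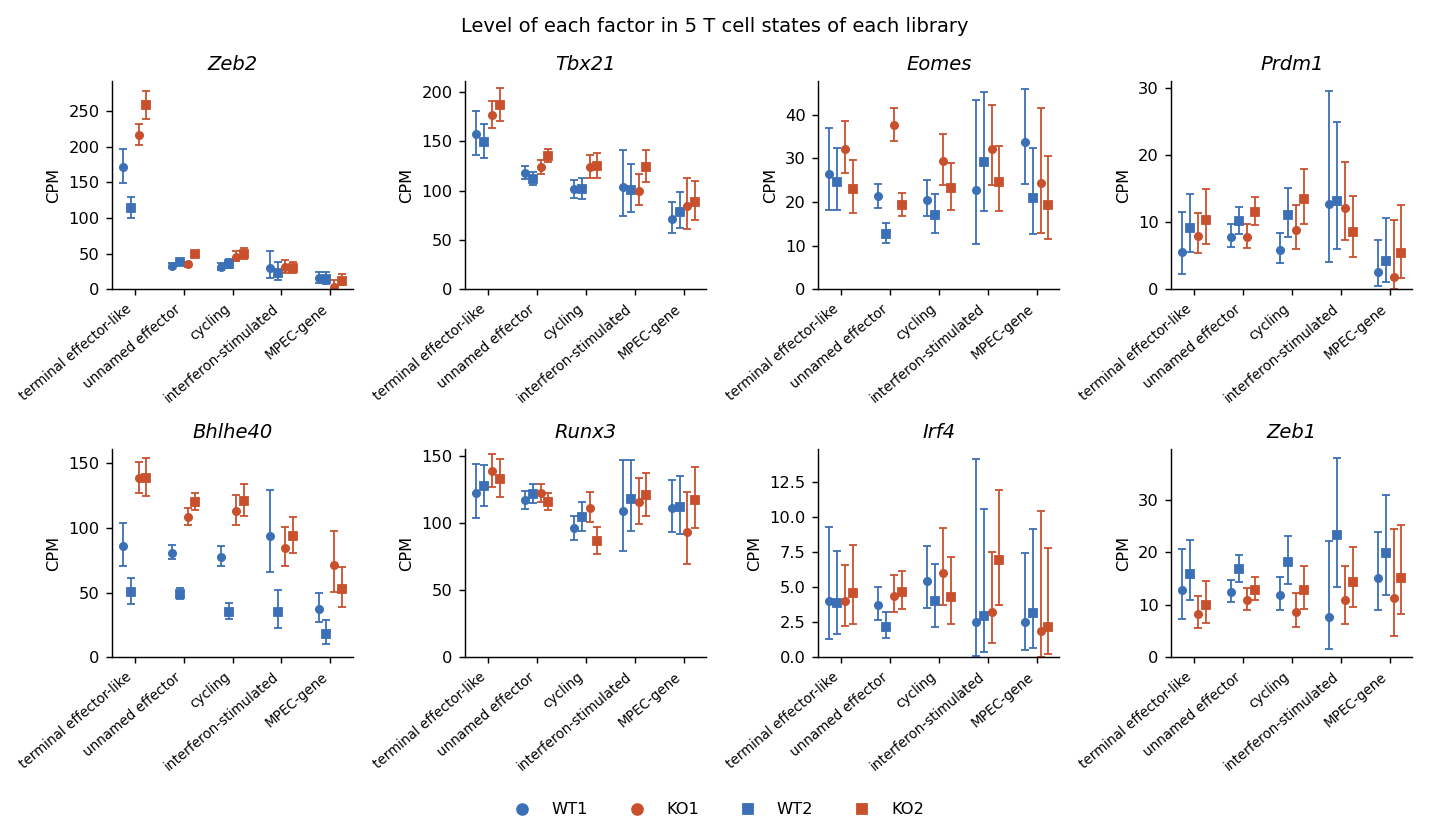
Level of each factor (CPM, linear axis from 0) in the 5 T cell states, 1 point per library (blue, WT; red, Bcl3-/-; circles, chimera 1; squares, chimera 2), with exact 95% Poisson intervals that cover counting error only. Zeb2 lies between 115 and 258 CPM in terminal effector-like cells and at or below 49.7 CPM in every other state, whereas Runx3 is nearly flat.

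Eomes did not order the states. Its mean levels over libraries ran from 22.5 CPM in cycling cells to 27.2 CPM in interferon-stimulated cells, and no neighbouring pair of states differed beyond the spread over libraries. In MPEC-gene cells it was at 33.7 (WT1), 20.9 (WT2), 24.3 (KO1) and 19.4 CPM (KO2). Unlike its relative Tbx21, it was lower there than in unnamed effector cells only in KO1. The log2 differences were 0.64 (WT1), 0.67 (WT2), −0.61 (KO1) and 0.005 (KO2), with a mean of 0.18 ± 0.61 (SD, n = 4). The most marked Eomes level of KO1 was in an unnamed effector cluster led by Wfikkn2, Ier3, Lag3 and Eomes, with 51.0 CPM in 902 cells. This cluster was singled out after its values were seen.

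The repressors Prdm1 and Bhlhe40 shared a low level in MPEC-gene cells. Bhlhe40 there was at 37.1 (WT1), 17.8 (WT2), 71.1 (KO1) and 52.8 CPM (KO2), below unnamed effector cells of the same library in 4 of 4, by 1.07 ± 0.34 on the log2 scale (SD, n = 4). Prdm1 had only 1 to 5 UMIs per library in MPEC-gene cells (1.87 to 5.39 CPM), and its difference was −1.26 ± 0.28 (SD, n = 4). In terminal effector-like cells Prdm1 did not differ from unnamed effector cells beyond its spread (−0.17 ± 0.19, SD, n = 4), and Bhlhe40 was slightly above them (0.17 ± 0.14, SD, n = 4).

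Zeb1, the relative of Zeb2, varied little between states, and beyond the spread over libraries only MPEC-gene cells stood apart from their neighbour in the order. Its level there was 15.2 (WT1), 19.9 (WT2), 11.2 (KO1) and 15.1 CPM (KO2), and exceeded unnamed effector cells in 4 of 4 libraries, by 0.18 ± 0.10 on the log2 scale (SD, n = 4). These levels rest on 6 to 19 UMIs per library, and each library's counting interval for MPEC-gene cells includes its level in unnamed effector cells. Runx3 varied little, from 86.6 CPM in cycling cells of KO2 to 139 CPM in terminal effector-like cells of KO1. It was above unnamed effector cells in terminal effector-like cells (0.13 ± 0.07) and below them in cycling cells (−0.26 ± 0.12 on the log2 scale, SD, n = 4). Irf4 was rare in every T cell state (1.87 to 6.96 CPM) and its neighbouring states were not separated.

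Across the 20 profiles (5 states in 4 libraries, log2 of CPM + 1, centred within each library), the genes most like Zeb2 among 5003 compared were Il18rap, a subunit of the IL-18 receptor (Pearson r = 0.95), Tbx21 itself (0.94) and Klrc1, an NK cell receptor gene (0.94). For Tbx21 they were Rap1b (0.97), Il18rap (0.97) and Klrc1 (0.96), so that both members shared Il18rap and Klrc1. Those of Bhlhe40 were Krtcap2 (0.96), S100a13 (0.94) and Klrg1 (0.94), and those of Prdm1 were Tspo (0.94), Rab29 (0.92) and Ifng (0.91). Those of Eomes were less close, G3bp2 (0.70), Zfp148 (0.64) and Stx11 (0.63). The nearest genes of Runx3 were Ino80b, Zdhhc20 and Scp2 (0.88, 0.88 and 0.87), those of Irf4 were Txndc12, Urod and Uba1 (0.86, 0.85 and 0.79), and those of Zeb1 were Synrg, Hipk1 and Fam60a (0.84, 0.84 and 0.83). Within the group, Zeb2 correlated with Bhlhe40 at 0.75, with Eomes at 0.18 and with Zeb1 at −0.54. The profiles of a library share its depth and cells, and these values are a description.

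Single cells gave a similar picture. With each cell thinned to 1000 UMIs, which left out 15 to 223 shallower cells per library, a Zeb2 UMI was found in 15.8% of terminal effector-like cells of WT1, 9.78% of WT2, 20.2% of KO1 and 22.0% of KO2. In unnamed effector cells the shares were 3.17%, 3.76%, 3.37% and 4.93%. In MPEC-gene cells, which gave the lowest level of this gene among the T cell states, they were 0.621%, 1.18%, 0% and 1.01%, where 0 of 130 cells allows a share of up to 2.31% (3 counts of the total). Zeb2 was also found in B-like cells (3.73% to 8.57%), so these do not serve as its background. Without thinning, 8.68% to 20.2% of the cells in T cell clusters had a Zeb2 UMI.

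A Zeb2 UMI marked cells with terminal effector genes. Among thinned T cells of WT1, WT2, KO1 and KO2, Cx3cr1, a chemokine receptor gene of terminal effector cells, was found in 16.0%, 12.6%, 22.1% and 18.9% of cells with a Zeb2 UMI, and in 4.56%, 3.81%, 9.36% and 6.89% of cells without. Klrg1, an inhibitory receptor gene of the same cells, was found 1.71 to 2.65 times as often in cells with a Zeb2 UMI. Il7r, which encodes the IL-7 receptor of memory precursors, was found 0.379 to 0.519 times as often, and Tcf7, a memory factor, 0.281 to 0.540 times as often. Tbx21 was found only 1.10 to 1.41 times as often, and Eomes 0.594 to 1.11 times. The Cx3cr1 and Klrg1 intervals of cells with and without Zeb2 did not overlap in any library, and the Tbx21 intervals overlapped in all 4. Those of Il7r overlapped in WT1, WT2 and KO2, and those of Tcf7 in WT1 and KO1.

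**Figure D2:**
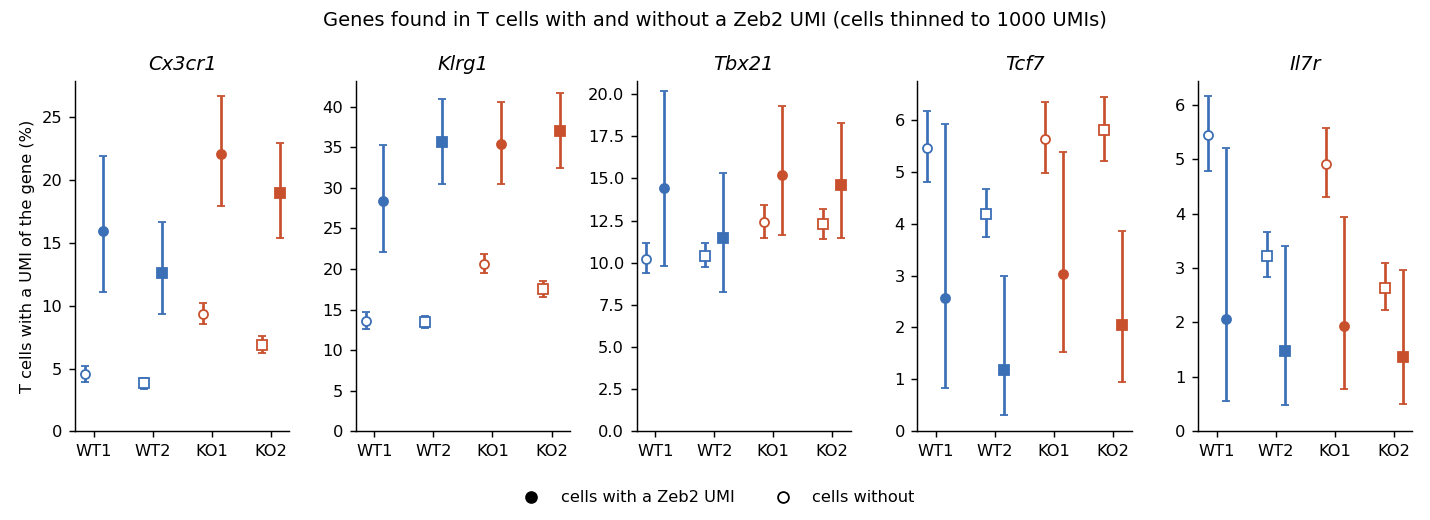
Share of T cells with a UMI of Cx3cr1, Klrg1, Tbx21, Tcf7 or Il7r (%, axes from 0, scaled per gene) among cells with (filled) and without (open) a Zeb2 UMI, per library (blue, WT; red, Bcl3-/-), with exact 95% binomial intervals that cover counting error only. The intervals of Cx3cr1 and Klrg1 lie apart in all 4 libraries, those of Tcf7 in WT2 and KO2 and those of Il7r in KO1.

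WT and Bcl3-/- cells were then compared over all T cell clusters, as summed counts per library. Such sums cannot tell more cells of a kind from more RNA per cell. Of the 8 factors, Zeb2 was the only one called at an adjusted p below 0.05 without a term for the chimera, where 0.27% of the 11106 genes tested were called (24 higher and 6 lower in Bcl3-/- cells). With chimera as a block, since WT and Bcl3-/- cells of 1 number came from 1 animal, 14.1% of genes were called (786 higher and 782 lower). Zeb2, Bhlhe40, Eomes, Tbx21 and Zeb1 were then called, 5 of 8, with Zeb1 as the lower one. DESeq2 with the same block called 225 genes in all, and of the 8 factors only Zeb2. The median log2 fold change was 0.32 for the 8 factors and 0.01 for all genes tested.

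Zeb2 was at 40.7 (WT1), 45.0 (WT2), 70.4 (KO1) and 73.9 CPM (KO2). Both Bcl3-/- libraries lay above both WT libraries, by 1.73-fold in chimera 1 and 1.64-fold in chimera 2. The log2 fold change was 0.74 (SE 0.09, adjusted p = 0.0391 by edgeR's quasi-likelihood test, 1.42e-12 with chimera as a block). Without KO1 or KO2 the unblocked call by edgeR was lost (adjusted p = 0.0640 and 0.0919), with log2 fold changes of 0.73 and 0.75. Such fits leave 1 library in a group, which is then assumed to vary as the pair of the other genotype does, so they show only how far a call depends on single libraries. In barcodes with under 100 UMIs Zeb2 was also higher in Bcl3-/- in both chimeras (37.0 and 43.6 CPM in WT1 and WT2, 48.4 and 56.7 CPM in KO1 and KO2). The part of free RNA in the Zeb2 difference was not tested.

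Bhlhe40 was at 77.9 (WT1), 44.2 (WT2), 112 (KO1) and 117 CPM (KO2). The groups did not overlap, and the WT libraries differed from each other more than the Bcl3-/- libraries did. The ratio of Bcl3-/- to WT was 1.44 in chimera 1 and 2.65 in chimera 2. In barcodes with under 100 UMIs Bhlhe40 was at 92.4 (WT1), 34.2 (WT2), 106 (KO1) and 124 CPM (KO2), higher in Bcl3-/- in both chimeras as well, and the part of free RNA in the difference was not tested. The log2 fold change was 0.89 (SE 0.24, adjusted p = 0.216 by edgeR), and 0.95 with the block (SE 0.09, adjusted p = 2.02e-16 by edgeR, 0.288 by DESeq2). The call also depended on WT1: without it, against WT2 alone, the lowest library for this gene, edgeR with no block gave a log2 fold change of 1.39 (adjusted p = 0.00114, with the spread taken from the Bcl3-/- pair).

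The T-box pair differed in size and evenness. Tbx21 was at 113 (WT1), 112 (WT2), 131 (KO1) and 137 CPM (KO2), which left a gap between the groups but a small one, with a log2 fold change of 0.24 (SE 0.09, adjusted p = 0.306 by edgeR). With the block the adjusted p for Tbx21 was 0.0137 by edgeR and 0.502 by DESeq2. Eomes was at 22.3 (WT1), 16.1 (WT2), 34.3 (KO1) and 21.0 CPM (KO2). For Eomes the groups overlapped and only the libraries of 1 chimera could be ordered: Bcl3-/- was higher in both, by 1.54-fold and 1.30-fold. Its log2 fold change was 0.52 (SE 0.27, adjusted p = 0.442 by edgeR), and 0.50 with the block (adjusted p = 9.08e-04 by edgeR, 0.327 by DESeq2).

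Zeb1 was at 12.4 (WT1), 17.4 (WT2), 10.0 (KO1) and 12.8 CPM (KO2). It was the only factor lower in Bcl3-/- cells of both chimeras, with a log2 fold change of −0.40 (SE 0.18, adjusted p = 0.386 by edgeR), and of −0.39 with the block (adjusted p = 0.0435 by edgeR). The ranges of the genotypes overlapped.

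Prdm1, Runx3 and Irf4 were not called by any of these fits. Runx3 was at 112 (WT1), 119 (WT2), 122 (KO1) and 114 CPM (KO2), and its direction differed between the chimeras. The 95% interval of its log2 fold change (from the standard error, by the normal distribution) ran from −0.12 to 0.17 with the block, the narrowest of these 3. Those of Prdm1 (6.92 to 11.2 CPM) and Irf4 (2.80 to 4.68 CPM) ran from −0.15 to 0.53 and from −0.03 to 0.86.

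**Figure D3:**
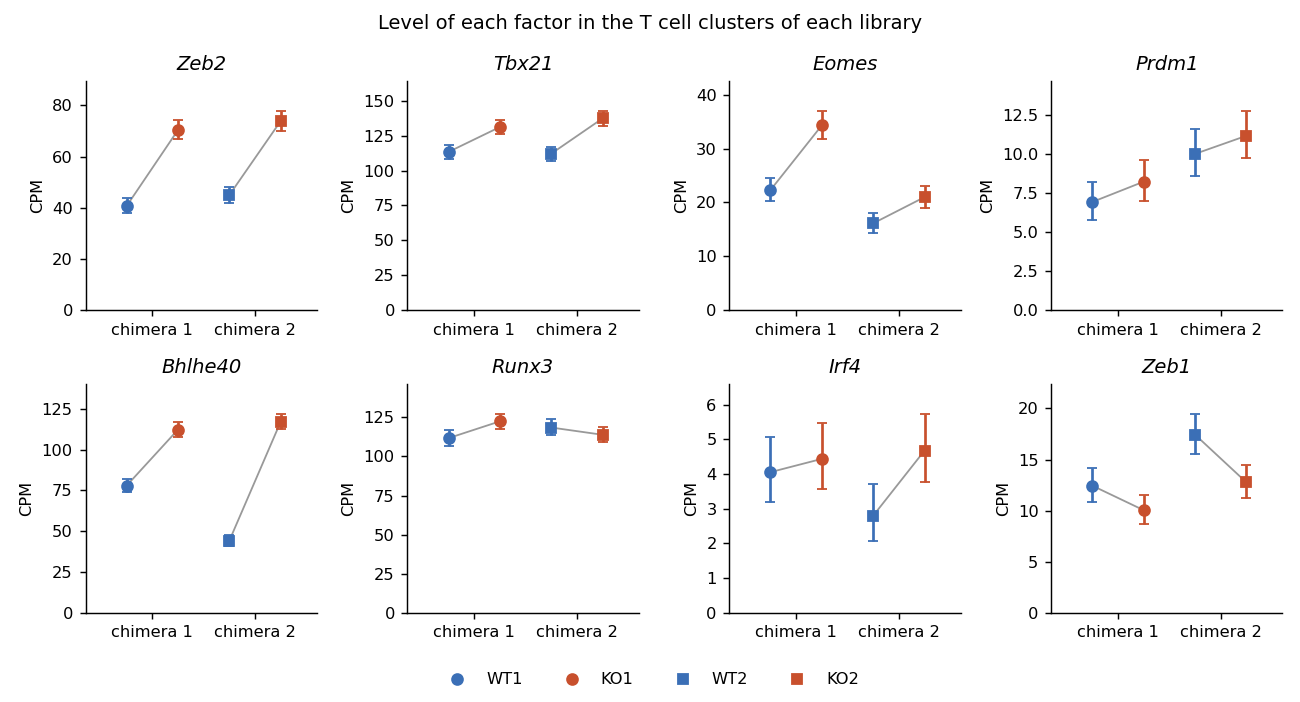
Level of each factor in the T cell clusters of the 4 libraries (CPM, linear axes from 0, scaled per gene), with exact 95% Poisson intervals that cover counting error only and grey lines joining WT (blue) and Bcl3-/- (red) of 1 chimera. Zeb2 rises from 40.7 and 45.0 to 70.4 and 73.9 CPM, while Runx3 goes up in chimera 1 and down in chimera 2.

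When all cells were used, clusters of other cell types included, 0.363% of 11566 genes were called without the block and 9.65% with it. Zeb2 was at 45.3 (WT1), 50.5 (WT2), 72.5 (KO1) and 76.4 CPM (KO2), a log2 fold change of 0.62 (SE 0.08, adjusted p = 0.0408 by edgeR). Zeb2 was the only factor called without the block, and that call was lost without WT2, KO1 or KO2 (adjusted p = 0.0724, 0.0502 and 0.0708 by edgeR). With the block edgeR called Zeb2, Bhlhe40, Eomes and Tbx21, and DESeq2 only Zeb2. Zeb2 is also expressed by myeloid cells. The clusters that combined B cell and myeloid genes, led by Lyz2 and MHC class II genes, held it at 153 (WT1), 168 (WT2), 171 (KO1) and 162 CPM (KO2), with overlapping counting intervals. These few cells carried 9.04% to 16.6% of all Zeb2 UMIs of a library. In T cell clusters the 10 myeloid marker genes summed to 960 (WT1), 709 (WT2), 989 (KO1) and 724 CPM (KO2), higher in chimera 1 than in chimera 2 for both genotypes, and their part in the Zeb2 difference was not tested. None of the 10 was at 0, and the most abundant was S100a8 in chimera 1 (242 and 284 CPM in WT1 and KO1) and Cst3 in chimera 2 (203 and 188 CPM in WT2 and KO2).

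Within terminal effector-like clusters, 0.611% of 8349 genes were called without the block and 5.29% with it, and the 7 factors tested (Irf4 was too rare) included none called without it by edgeR. An unadjusted p below 0.05 was found for 3 of the 7 and for 12.1% of all genes, and DESeq2 called 1, Bhlhe40, against 0.405% of all genes. With no filter on low counts, edgeR without the block called Zeb2 and Bhlhe40, against 2.4% of 13323 genes. With the factors kept in the clustering it called Bhlhe40, against 0.581% of 8264 genes. Calls with no block depended on single libraries. Without WT1, against WT2 alone, the lowest library for both genes, and with the spread of the Bcl3-/- pair, edgeR called Zeb2 (log2 fold change 1.07, adjusted p = 6.38e-05) and Bhlhe40 (1.48, adjusted p = 1.01e-07), and without WT2, KO1 or KO2 it called no factor (Zeb2 at 0.40, 0.80 and 0.64, adjusted p = 0.550, 0.621 and 0.567). With the block, edgeR called Zeb2 and Bhlhe40 higher, and DESeq2 called Bhlhe40 (adjusted p = 0.0485) but not Zeb2 (adjusted p = 1.00). Zeb2, for which the 4 values are given above, had a log2 fold change of 0.74 with the block (SE 0.13, adjusted p = 7.57e-06 by edgeR) and 0.72 without (SE 0.19, adjusted p = 0.153). Both Bcl3-/- libraries lay above both WT libraries, and WT2 was the lowest, with a Zeb2 ratio of 1.26 in chimera 1 and 2.25 in chimera 2. Bhlhe40 was at 86.2 (WT1), 50.5 (WT2), 138 (KO1) and 139 CPM (KO2), a log2 fold change of 1.05 with the block (SE 0.15, adjusted p = 3.22e-08 by edgeR). The log2 fold change of Eomes was 0.07 there (SE 0.22), and that of Tbx21 0.23 (SE 0.12, adjusted p = 0.343 by edgeR).

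Within unnamed effector clusters, 0.135% of 10333 genes were called without the block and 6.2% with it. No factor was called without it by edgeR, where 1 had an unadjusted p below 0.05 (11.1% of all genes did), and DESeq2 called 1, Bhlhe40 (0.607% of all genes). With the block edgeR called Bhlhe40 and Eomes, and DESeq2 called neither (adjusted p = 0.706 and 0.287). With no block and 1 library left out, so that the spread came from the other genotype's pair alone, edgeR called Bhlhe40 without WT1, KO1 or KO2 (adjusted p = 0.0335, 5.16e-06 and 1.82e-04), and Eomes without KO2 (log2 fold change 1.16, adjusted p = 1.03e-08). With all 4 libraries the adjusted p of Eomes was 0.518. Bhlhe40 was at 80.9 (WT1), 49.1 (WT2), 109 (KO1) and 120 CPM (KO2) (log2 fold change 0.83, SE 0.13, adjusted p = 4.42e-04 by edgeR with the block). Eomes was at 21.3 (WT1), 12.8 (WT2), 37.5 (KO1) and 19.3 CPM (KO2), which overlapped between the genotypes but was higher in the Bcl3-/- cells of each chimera (0.71, SE 0.13, adjusted p = 0.00160 by edgeR with the block). Zeb2 was not called there (log2 fold change 0.22, SE 0.10, adjusted p = 0.246 by edgeR with the block). Without the 3 clusters led by memory precursor or terminal effector genes, a choice made after seeing the data, the levels of chimera 1 alone could move, since the clusters held 1606 of 2954 unnamed cells of WT1, 771 of KO1 and none of WT2 or KO2. Zeb2 was then at 21.5 (WT1), 38.5 (WT2), 36.2 (KO1) and 49.7 CPM (KO2) in the remaining unnamed cells. The cluster of WT1 with the higher Zeb2 level was among those removed, so the wider difference (0.50, adjusted p = 0.0178 by edgeR with the block, and 0.47, adjusted p = 0.517 without it) follows in part from the removal. The calls of Bhlhe40 and Eomes were as before.

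Whether the genotype effect differed between these states was tested as an interaction, in which 0.789% of 10263 genes were called and none of the 8 factors, 2 of which had an unadjusted p below 0.05 (8.81% of all genes did). Zeb2 came nearest, with an effect larger in terminal effector-like cells by 0.55 on the log2 scale (SE 0.16, adjusted p = 0.145 by edgeR). The difference for Zeb2 was called without WT1 (0.94, adjusted p = 7.99e-05 by edgeR) and without KO2 (0.66, adjusted p = 0.00520), and was 0.097 without WT2. Without the 3 unnamed clusters it was 0.36 (adjusted p = 0.752 by edgeR). For Eomes the effect was smaller there by −0.69 (SE 0.24, adjusted p = 0.290), and for Bhlhe40 the difference was 0.23 (SE 0.12, adjusted p = 0.656).

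**Figure D4:**
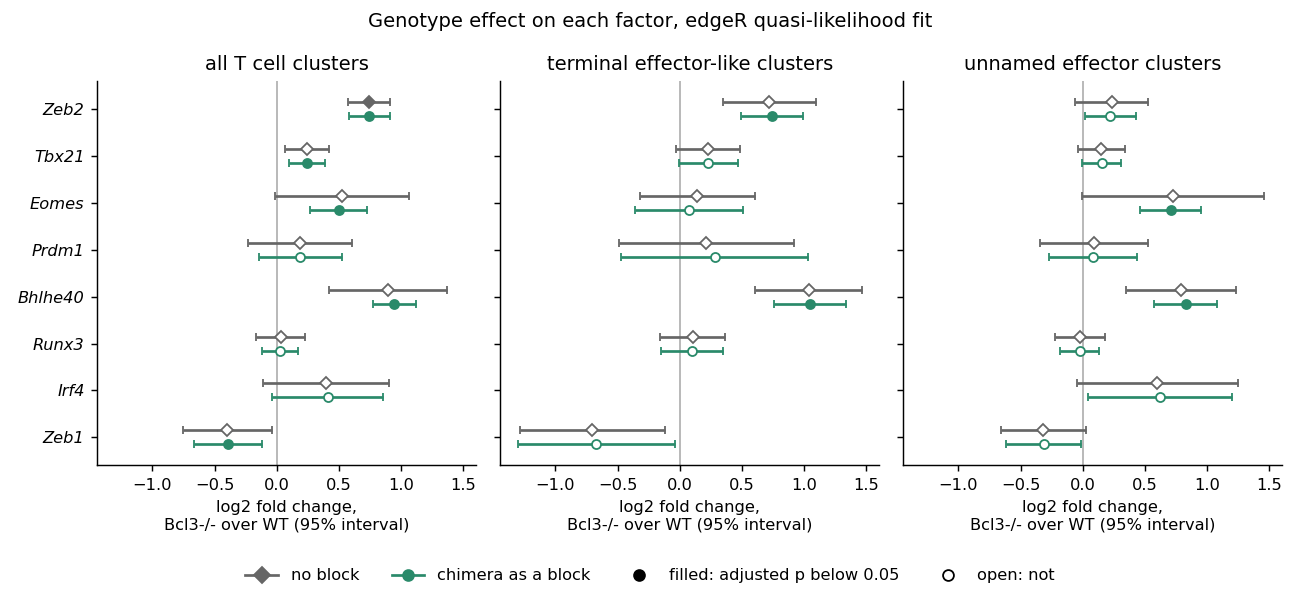
Log2 fold change of Bcl3-/- over WT for each factor in all T cell clusters, terminal effector-like clusters and unnamed effector clusters (x axis, bars are 95% intervals from the standard error by the normal distribution), by edgeR without a block (grey diamonds) and with chimera as a block (green circles), filled where the adjusted p is below 0.05. Such bars are narrower than the test allows. That of Zeb1 in all T cell clusters without the block runs from −0.76 to −0.04, at an unadjusted p of 0.0645 by edgeR. Zeb2 is filled by both fits in all T cell clusters, Bhlhe40 by the blocked fit in all 3 sets of cells, and Irf4 was not tested in terminal effector-like cells.

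How the Zeb2 difference divided between states and levels varied with the chimera. Terminal effector-like cells carried 6.77% of the T cell UMIs in WT1 and 18.9% in KO1, and 11.9% in WT2 and 13.4% in KO2. The shares of chimera 1 follow the naming of its clusters. In WT1 a cluster of 949 cells with Klrg1 and Cx3cr1 among its leading genes stayed unnamed. In KO1 clusters of 638 and 492 cells took the terminal effector-like name. When the states of each Bcl3-/- library were weighted as in the WT library of its chimera, the log2 ratio of Zeb2 went from 0.79 to 0.25 in chimera 1 and from 0.72 to 0.67 in chimera 2. For Bhlhe40 it went from 0.53 to 0.48 and from 1.41 to 1.42, and for Eomes from 0.62 to 0.61 and from 0.38 to 0.36. Genes that name the terminal effector-like state, such as S1pr5, themselves differed between genotypes, so these shares are a description with no test.

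Known targets and associated genes of these factors in effector cells, a list of 14, moved in both directions. In T cell clusters edgeR called 1 without the block and 9 with it, 4 higher and 5 lower, and DESeq2 without the block called 5, of which 3 were lower, at a median log2 fold change of −0.16 (0.01 over all genes tested). For these and the following lists the background is the one given above: 0.27% of all genes without the block, where 13.8% had an unadjusted p below 0.05, and 14.1% with it. DESeq2 without the block called 1.02% of 15993 genes in T cell clusters. S1pr5, a receptor for sphingosine-1-phosphate that guides exit from tissue, was at 18.8 (WT1), 18.6 (WT2), 55.0 (KO1) and 54.2 CPM (KO2) and rose by 1.54 on the log2 scale (SE 0.10, adjusted p = 0.00336 by edgeR). With the block, Cx3cr1 (0.93), Klrg1 (0.46) and Ccl5 (0.45), a chemokine gene, also rose. Xcl1, another chemokine gene, fell most (−2.66, from 8.17 and 3.60 CPM to 0.605 and 1.18 CPM), and Prf1, which encodes perforin, was at 50.5 and 35.7 CPM in WT1 and WT2 and 19.2 and 21.2 CPM in KO1 and KO2 (−1.08, adjusted p = 2.96e-14 with the block by edgeR). Cxcr3, a chemokine receptor gene known as a T-bet target, fell by 0.43 with the block, the chemokine gene Ccl4 by 0.24 and Gzmb, a granzyme gene, by 0.21.

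Of 10 memory genes known to be repressed in effector cells, edgeR called none without the block, where 4 had an unadjusted p below 0.05, and 4 with it, and DESeq2 called none. Cd27, a costimulatory receptor gene, rose by 0.35 and Il2 by 0.81, while Ccr7, a lymph node homing receptor gene, fell by 0.78 and Id3 by 0.82, on the log2 scale by edgeR with the block. Il2 was at 11.7 (WT1), 7.14 (WT2), 12.1 (KO1) and 22.0 CPM (KO2), and Id3 at 12.3, 8.29, 4.34 and 7.51 CPM in the same order, so the Il2 difference lay mostly in chimera 2 and that of Id3 mostly in chimera 1. Cd27 was at 247 (WT1), 234 (WT2), 293 (KO1) and 327 CPM (KO2), and Ccr7 at 7.19, 13.9, 4.59 and 7.56 CPM, both the same way in each chimera. Tcf7 (0.10) and Il7r (−0.23) were not called. The list median was 0.01, as over all genes tested.

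Among 11 tested partners and relatives of the factors, edgeR called none without the block, where 3 had an unadjusted p below 0.05, and 3 with it. DESeq2 called none of 12. Irf2, a relative of Irf4, rose by 0.39 and Ctbp1, a corepressor of ZEB proteins, by 0.21, while Irf8 fell by 0.54. Runx3 partners and relatives were not called (Cbfb 0.05, Runx1 0.15, Runx2 0.25). Of 20 upstream signalling genes, edgeR called none without the block, where 7 had an unadjusted p below 0.05, and DESeq2 called 2, Il21r among them. With the block 5 rose and 2 fell. Those that rose were Il21r (0.89), Tgfbr2 (0.52), Nfatc1 (0.40), Smad3 (0.38) and Stat5b (0.37), and those that fell included Ifngr1 (−0.34), which encodes a subunit of the interferon gamma receptor. Stat5b was at 28.5 (WT1), 21.5 (WT2), 28.8 (KO1) and 36.6 CPM (KO2), so its difference lay mostly in chimera 2. Il12rb1 (−0.27), Il12rb2 (−0.22) and Stat4 (−0.08), which relay the IL-12 signal that induces Tbx21, were not called.

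The genes that marked the states also moved with genotype over the T cell clusters. With the block, 4 of 6 tested terminal effector markers rose, among them Gzma (0.72), which encodes a granzyme, whereas 10 of 13 cycling markers fell, led by Cenpf (−0.72) and the replication gene Mcm3 (−0.68), with Mcm5, Ccnb1, Top2a, Tyms, Rrm2, Mki67, Birc5 and Ccnb2 between −0.58 and −0.35. Of 9 interferon-stimulated markers 7 fell, with Ifit3 at −0.77, Isg15 at −0.58, and Ifit1, Rsad2, Usp18, Bst2 and Irf7 between −0.61 and −0.27. Of 7 memory precursor markers 4 fell (Xcl1, Ccr7, Id3 and Slamf6, the last by 0.27) and none rose, at a median of −0.27. Of 6 effector markers 3 fell, Prf1, Gzmb and Cxcr6 (−0.21), and Id2 rose. Id2, a transcription regulator of effector cells, was at 781 (WT1), 699 (WT2), 1262 (KO1) and 1541 CPM (KO2) (log2 fold change 0.91, SE 0.08, adjusted p = 3.09e-19 by edgeR with the block and 0.0619 without). Of the naive T cell markers Ccr7 and Dapl1 (−0.62) fell. Without the block edgeR called 1 of the terminal effector markers, S1pr5, and none of the cycling, interferon-stimulated or memory precursor markers (9, 4 and 4 had an unadjusted p below 0.05), while DESeq2 called 3, 2, 2 and 1 of the 4 lists. Their part in the differences of the 8 factors was not tested. Interferon-stimulated clusters carried 2.13% (WT1), 3.91% (WT2), 7.86% (KO1) and 9.61% (KO2) of the T cell UMIs. In these clusters the 9 interferon-stimulated markers summed to 4652 (WT1), 5234 (WT2), 1427 (KO1) and 1772 CPM (KO2). Clusters of this name were thus larger, with less of these markers, in the Bcl3-/- library of each chimera.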

How the data were processed

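The authors deposited UMI counts per gene and barcode for each library, made with the 10x 3′ v2 kit and, per the submitters' processing notes, bcl2fastq 2.17, Cell Ranger 2.2.0 and mm10. Their tables held 737280 barcodes per library, and UMIs summed to 21193300 (WT1), 20358780 (WT2), 22922219 (KO1) and 22672343 (KO2). Median UMIs per cell were 3571, 2019, 3620.5 and 2948, so WT2 was the shallowest. Cells were kept as stated above, with genes found in at least 2 cells, and no doublet caller was run.

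Each library was clustered by itself in Seurat 5.3.0 (2000 variable features without the 8 factors, 15 components, resolution 0.8). A cluster of at least 1% of cells took a name where 3 or more genes of 1 list were 2-fold above the other cells, and the immunoglobulin genes Ighm and Igkc of the B cell list were not in the tables. CPM are plain sums. Summed counts were tested in R 4.3.3 with edgeR 4.0.16 (TMM scaling, filterByExpr, quasi-likelihood test, Benjamini-Hochberg adjustment at 0.05) with and without chimera as a block. The block comes from the labels, since both genotypes of a number came from 1 chimera. Over 6863 genes the difference between the WT libraries correlated with that between the Bcl3-/- libraries (r = 0.29). The code was tested on simulated data. Alternatives included DESeq2 1.42.0, its size factors, other filters and other clusterings. Expression intervals are exact Poisson and shares exact binomial (Clopper-Pearson), the limit given for a count of 0 is 3 counts of the total, and all cover counting error only.

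The 8 genes and the lists were chosen with earlier results of these data known. Named by rule were the 8 factors, Bcl3, list genes called in the fit of all cells or its block, the largest rise and fall of each list, and the 3 genes of at least 20 CPM most like each factor. Other list genes were named after their values were seen. Of the list genes that the rule names, 1 is not reported here. Positions follow GENCODE vM21, where 27645 of 27998 identifiers matched. Promoter windows are from RefSeq.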

Additional observations from a re-analysis of the deposited data

Results flagged for a closer look

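Irf4 stood out in cells that entered no comparison of T cell clusters or states, though they are part of the sums over all cells. A small cluster led by plasma cell genes such as Jchain, Mzb1 and Xbp1 was found in each library, with 40 to 78 cells. There Irf4, which plasma cells are known to need, was at 66.9 (WT1), 56.0 (WT2), 48.2 (KO1) and 137 CPM (KO2), against 2.80 to 4.68 CPM in T cell clusters. The exact intervals did not overlap those of the T cells in any of the 4 libraries. These values rest on 15 to 46 UMIs per library, and the genotypes were not compared in these cells. Prdm1, the other plasma cell factor of the group, was at 14.9 to 19.3 CPM on 5 or 6 UMIs, and its intervals included or overlapped those of the T cells in all 4 libraries.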

How the results depend on the processing

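Counts of called genes depended on the block and on single libraries. For all cells, T cell clusters, terminal effector-like clusters and unnamed effector clusters, the replicate block (paired by chimera) gave 1116, 1568, 442 and 641 calls where edgeR without it gave 42, 30, 51 and 14. The cause was not tested. With the block in DESeq2, chosen after seeing the data, the counts were 250, 225, 54 and 129, and DESeq2 without it gave 195, 163, 54 and 91. Leaving out 1 library gave 40 to 228, 30 to 136, 1 to 384 (1 without KO1) and 25 to 393 calls. With no filter there were 9 calls in T cell clusters, 320 in terminal effector-like and 45 in unnamed effector clusters. Resolution 1.2 gave 24 and the factors kept in the clustering 35 calls in unnamed effector clusters, and leaving out the 3 of these led by other states' markers, also chosen after seeing the data, gave 23 (608 with the replicate block). The interaction gave 81 calls, and 41 to 136 with 1 library left out.

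EdgeR with the block called Bhlhe40, Tbx21 and Eomes in all cells and in T cell clusters, which DESeq2 with the block did not. Their log2 fold changes were 0.93, 0.24 and 0.48 in all cells and 0.95, 0.24 and 0.50 in T cell clusters. The same held for Zeb1 in T cell clusters (−0.39). For Zeb2 the call was lost without the filter (0.62 in all cells, 0.74 in T cell clusters) and without shared barcodes (0.61 in all cells). In terminal effector-like clusters, edgeR without the block gained calls of Zeb2 and Bhlhe40 without the filter. It also gained a call of Bhlhe40 there with the factors kept in the clustering. With 1 library left out, Zeb2 was at 0.57 to 0.66 in all cells and 0.69 to 0.78 in T cell clusters. The Zeb2 difference of MPEC-gene from unnamed effector cells was −2.86 after thinning.

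Directions turned only where the factor was not called by edgeR without the block. With 1 library left out, Prdm1 was at −0.021 to 0.42 in all cells, −0.040 to 0.44 in T cell clusters and −0.17 to 0.30 in unnamed effector clusters, Runx3 at −0.083 to 0.12, −0.074 to 0.12 and −0.12 to 0.064 in the same sets, and Eomes at −0.19 to 0.38 in terminal effector-like clusters. Runx3 was at −5.7e-04 with equal cells and UMIs in all cells. With the factors kept in the clustering, Eomes was at −0.29 in terminal effector-like and Runx3 at 0.011 in unnamed effector clusters. Prdm1 was at −0.088 in terminal effector-like clusters at resolution 1.2, and Zeb2 at −0.054 in unnamed effector clusters at resolution 0.5. Of the 679 values recomputed under alternatives, 578 kept their direction and side of the threshold or moved by less than their spread. Counts of calls that stayed near their main value are among these 578. The main results were the counts of calls, Zeb2, Tbx21 and Eomes in all cells and T cell clusters, and Zeb2 between states. Of their values 111 stayed the same, 32 moved, 8 lost a call and 4 gained 1. Among the other values 14 turned direction. Resolution 0.5 could not be used for terminal effector-like clusters or the differences between states, since WT1 then had no such cluster and KO1 no MPEC-gene cluster. Depth limits Irf4, with 49 to 91 UMIs per library in T cell clusters, and Prdm1 in MPEC-gene cells, with 1 to 5.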

Other observations

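In the barcodes with under 100 UMIs, Zeb2 lay below its level over all cells of each library, on 28 to 55 UMIs. Bhlhe40, on 22 to 120 UMIs there, was above its level over all cells in WT1 (73.4 CPM in cells) and KO2 (109 CPM), near it in KO1 (105 CPM) and below it in WT2 (41.5 CPM). Tbx21 was at 110, 101, 122 and 125 CPM in the same barcodes of WT1, WT2, KO1 and KO2, Eomes at 17.2, 10.9, 25.7 and 19.6 CPM and Runx3 at 85.8, 99.6, 87.0 and 81.4 CPM. Tbx21 and Eomes were thus higher in Bcl3-/- in both chimeras in these barcodes too, and the part of free RNA in their differences was not tested. Prdm1, Irf4 and Zeb1 had 2 to 13 UMIs per library there. In B-like cells, thinned to 1000 UMIs, a Tbx21 UMI was found in 1.57% to 6.72% of cells and an Eomes UMI in 0% to 0.952% (0 of 127 cells of KO2 allows a share of up to 2.36%, 3 counts of the total), against 10.4% to 12.6% and 1.95% to 3.80% in T cell clusters. Bcl3 was highest on average in MPEC-gene cells among the T cell states (61.6 (WT1), 123 (WT2), 89.8 (KO1) and 157 CPM (KO2)), above unnamed effector cells in 4 of 4 libraries by 1.23 ± 0.86 on the log2 scale (SD, n = 4).

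Markers of other cell types were also read over all cells. With the block edgeR called Ebf1 of the B cell list (log2 fold change 1.02) and S100a9 (1.42), S100a8 and Tyrobp (0.28) of the myeloid list higher in Bcl3-/- libraries, and H2-Ab1 (−0.27), Fcer1g (−0.35), Lyz2 (−0.31), the plasma cell gene Mzb1 (−0.37) and Tnfrsf4 (−1.07) of the CD4 T cell list lower. Of the T cell list Cd3e rose (0.94). The largest rises and falls of the marker lists that were not called, without the block, were those of Igfbp4 (0.75, naive T cells), Klrb1c (−0.10, terminal effector cells), Pcna (0.04, cycling cells), Derl3 and Tnfrsf17 (−0.51 and 0.98, plasma cells) and Csf1r (−0.38, myeloid cells). Those of the erythroid list were Alas2 and Hba-a2 (−0.10 and 1.40), those of the NK cell list Klrb1b and Klra4 (−0.64 and 0.76), and Cd40lg (0.27, CD4 T cells), Cd3g (−0.10, T cells) and Bhlhe41 (0.45), a relative of Bhlhe40, completed them. Hba-a2 was at 6.44 (WT1), 7.81 (WT2), 1.56 (KO1) and 37.6 CPM (KO2), so it fell in chimera 1 and rose in chimera 2. Of the 5 erythroid genes, 4 had a positive log2 fold change without the block (median 0.37) and 1 with it (median −0.27), by edgeR. Ifit3b (0.23), the highest of the interferon-stimulated list, is a close copy of Ifit3, so reads may be split between them. The part of these genes in the differences of the 8 factors was not tested.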
